A study of Mus musculus with 2 samples.

Results

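The miR-30 family was compared between CD4+ T cells of the gut lamina propria and CD4+ T cells of the spleen. The members were 7 of the 739 rows of the deposited table, taken by a fixed list of mouse miRBase accessions of miR-30 arms. They were 5 arms from the 5p side of their hairpins (miR-30a-5p, MIMAT0000128; miR-30b-5p, MIMAT0000130; miR-30c-5p, MIMAT0000514; miR-30d-5p, MIMAT0000515; miR-30e-5p, MIMAT0000248) and 2 from the 3p side (miR-30a-3p, MIMAT0000129; miR-30e-3p, MIMAT0000249). The table was not searched for further miR-30 arms. The rule uses the members' accessions and no measured value, though it was set with earlier results of these data known. The study hybridised 1 lamina propria sample and 1 spleen sample to miRNA arrays, each sample on an array of its own. All cells came from female C57BL/6 mice of 10 weeks that were heterozygous for Il10 (IL-10 +/-), the gene of an anti-inflammatory cytokine, so both groups carry the same single working copy and no wild-type mice were analysed here. CD4+ T cells, the helper lineage, were isolated with magnetic beads (MACS), and lamina propria cells had first been released with collagenase, a step mentioned for that tissue alone. Tissue and collagenase treatment therefore cannot be told apart. The number of mice per sample is not stated in the labels.

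A miRNA is cut from a hairpin transcript by Drosha and Dicer, and 1 strand of the resulting duplex is loaded into an Argonaute protein, where bases 2 to 8 (the seed) do most of the pairing with target mRNAs. The strand that is loaded more often is called the guide and the other the passenger. In the miR-30 family the 5p strands are the usual guides and share 1 seed, so they are read as having largely overlapping targets, while the 3p strands carry a different seed. The family is found in many tissues. Its described targets include BECN1, an autophagy gene repressed by miR-30a in human cells, Mttp, a lipoprotein assembly gene repressed by miR-30c in mouse liver, and GALNT7, a glycosyltransferase gene repressed by miR-30b and miR-30d in human melanoma cells.

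The mature sequences show why the arms fall into 2 groups. They were taken from RefSeq (build GRCm38.p6) by miRNA name, which gave 5 of the 7 members. miR-30b-5p and miR-30d-5p are given by name. Sequences are written 5′ to 3′ with the seed in capitals.
miR-30a-5p: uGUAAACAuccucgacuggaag
miR-30c-5p: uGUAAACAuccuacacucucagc
miR-30e-5p: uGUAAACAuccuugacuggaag
miR-30a-3p: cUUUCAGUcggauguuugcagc
miR-30e-3p: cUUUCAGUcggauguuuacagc

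The 3 printed 5p arms have the seed GUAAACA, which 4 of 1679 mature miRNA names in the RefSeq table carry (0.238%), the fourth being miR-384-5p. miR-30b-5p and miR-30d-5p are not in this count, which is therefore a minimum. Both 3p arms have the seed UUUCAGU, which 2 of the 1679 names carry, these being the arms themselves. Counting from 1 at the 5′ end of the miR-30a arm, miR-30a-5p and miR-30e-5p differ at 1 of 22 positions (C13U), and so do miR-30a-3p and miR-30e-3p (G18A). Both differences lie outside the seed. miR-30c-5p differs from either at 5 of the first 22 positions, and the 3 arms are identical over their first 12 bases. Probe sequences were not used here, so how far a probe for miR-30a also detects miR-30e, or the reverse, was not tested.

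Among the 7 members, both arms of a hairpin are included for miR-30a and miR-30e. The RefSeq hairpins are shown to place the arms, which are in capitals, on either side of the loop.
Mir30a: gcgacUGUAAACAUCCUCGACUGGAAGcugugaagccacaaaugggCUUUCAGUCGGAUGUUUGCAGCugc
Mir30e: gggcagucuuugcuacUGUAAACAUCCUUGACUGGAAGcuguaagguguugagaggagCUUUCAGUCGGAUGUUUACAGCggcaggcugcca

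In GRCm38.p6 the Mir30a hairpin lies on the plus strand at chr1:23272269-23272339 and the Mir30e hairpin on the minus strand at chr4:120772606-120772697. The Mir30e locus falls within the span of Nfyc, which encodes a subunit of the transcription factor NF-Y. The annotation used here gives gene spans without exons, so exon or intron is not stated. miR-30c-5p has 2 source loci with the same mature sequence: Mir30c-2, 19361 bases from Mir30a on chromosome 1, and Mir30c-1, 2983 bases from Mir30e and also within Nfyc. Its signal cannot be divided between them. The gene table places Mir30b and Mir30d next to each other on chromosome 15, with 0 annotated genes between them.

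The 5p arms were lower in lamina propria CD4+ T cells than in spleen CD4+ T cells, by 2.47-fold to 4.43-fold, on the deposited intensity scale. The one 3p arm listed on both arrays, miR-30e-3p, was 3.26-fold lower. The other, miR-30a-3p, was listed in spleen and blank in lamina propria. Such blanks were common: of 516 rows with a spleen value, 353 also had a lamina propria value. In the other direction, 353 of 378 rows with a lamina propria value also had a spleen value. Values are linear 1-colour intensities in arbitrary units from 1 array per tissue, so each has n = 1, none has an error, and no difference could be tested or checked against replicates. The number of arrays limits the precision. Different probes can give different signal for the same amount of RNA, so each arm is compared with itself across the tissues and not with the other arms. In such bulk samples, fewer cells with a miRNA and less of it per cell cannot be told apart.

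miR-30a-5p had an intensity of 29.87 in lamina propria and 73.85 in spleen. That is a log2 ratio (lamina propria over spleen) of -1.31, or 2.47-fold lower in lamina propria, the smallest difference among the 5p arms. miR-30b-5p had 105.62 in lamina propria and 434.64 in spleen, a log2 ratio of -2.04 (4.12-fold lower). Its Mir30b locus neighbours Mir30d, and miR-30d-5p had 110.40 in lamina propria and 319.01 in spleen, a log2 ratio of -1.53 (2.89-fold lower). Both arms of this neighbouring pair were thus lower in lamina propria, miR-30b-5p by the larger fold.

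miR-30c-5p, the arm with 2 source loci, had 123.44 in lamina propria and 370.77 in spleen, a log2 ratio of -1.59 (3.004-fold lower). miR-30e-5p had 73.85 in lamina propria and 326.81 in spleen, a log2 ratio of -2.15 (4.43-fold lower), the largest as deposited among the 6 arms with a ratio. The near-identical miR-30a-5p and miR-30e-5p therefore sat at opposite ends of the range. The median log2 ratio of the 5 arms was -1.59, and the folds spanned 1.79 times between the smallest and the largest. Without replicates it is not known whether a spread of this size exceeds array error, so the order of the arms is a description of these 2 arrays.

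**Figure D1:**
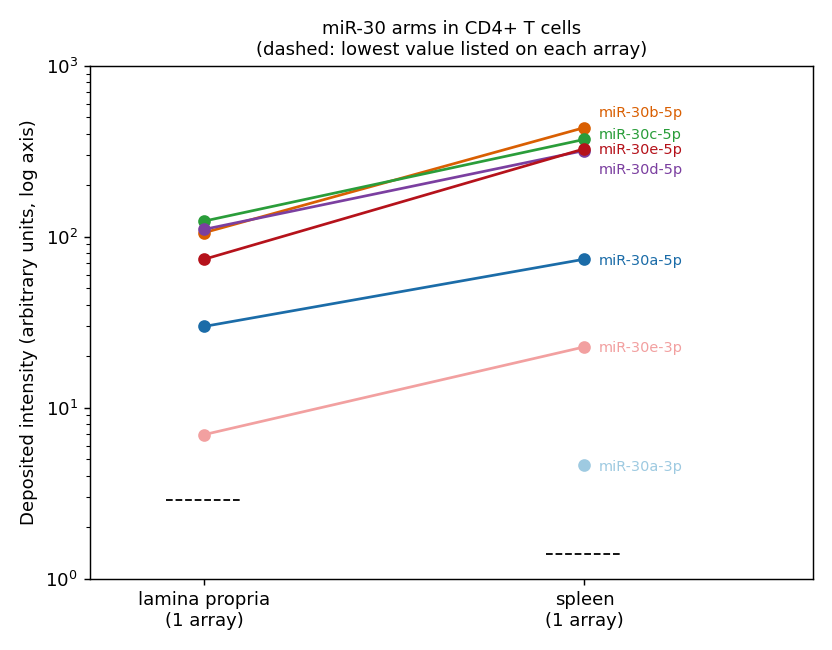
Deposited intensity (arbitrary units, log axis) of each miR-30 arm on the lamina propria array (left) and the spleen array (right), 1 point per array, with a line joining the values of 1 arm and a dashed line at the lowest value listed on each array (2.88 and 1.39). All 6 joined arms are lower in lamina propria, miR-30a-3p has a spleen point only, and heights of different arms are not comparable because their probes differ.

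The 3p arms lay closer to the lowest values listed on the arrays. miR-30e-3p, reported in human glioma cells to repress the NF-κB inhibitor IκBα, had 6.96 in lamina propria and 22.67 in spleen, a log2 ratio of -1.70. These values were 2.42 times the lowest listed value in lamina propria and 16.3 times the lowest in spleen. The 5p arms were 10.4 to 42.9 times the lowest listed value in lamina propria. With 10 added to both values the log2 ratio of miR-30e-3p was -0.95, short of 2-fold, while that of miR-30b-5p was -1.94.

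miR-30a-3p had 4.59 in spleen, 3.30 times the lowest value listed there, and no value in lamina propria. On the assumption that blank rows lie below 2.88, the lowest intensity given for lamina propria, it was at least 1.59-fold lower in lamina propria. Under 3 scalings that put the arrays at the same median, upper quartile or trimmed total, the bound was 1.15-fold to 1.22-fold. The bound stayed under 2-fold in each case, and miR-30a-3p is left out of the counts of arms.

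Setting the 2 arms of a hairpin side by side does not need the arrays to be on 1 scale, since a common factor cancels. For miR-30e the log2 ratio of the 5p arm was 0.44 below that of the 3p arm (a difference of -0.44). The sign of this difference turned after quantile normalization (0.40), and the difference was 0.05 after removal of the trend of ratio with level. No unequal change of the 2 arms can be read from it. For miR-30a the 5p arm was 2.47-fold lower and the 3p arm at least 1.59-fold lower, which gives no order.

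Neighbouring loci were compared in the same way. The log2 ratio of miR-30e-5p minus that of miR-30c-5p was -0.56, that of miR-30b-5p minus miR-30d-5p was -0.51, and that of miR-30a-5p minus miR-30c-5p was 0.28. The first and last differences use the same miR-30c-5p signal, which cannot be divided between its source loci, so they are not independent. Of the 8 alternative ways of processing, 4 can move such a difference: quantile normalization, trend removal, and 1 or 10 added. Under these 4 the first difference lay between -0.55 and -0.25 and the second between -0.66 and -0.49. The last turned to -0.11 after quantile normalization. As deposited, arms from neighbouring loci were no nearer to each other in ratio than some arms from different chromosomes: miR-30b-5p and miR-30e-5p had log2 ratios of -2.04 and -2.15, and miR-30c-5p and miR-30d-5p had -1.59 and -1.53. Others were farther apart than any neighbouring pair, such as miR-30a-5p (-1.31) and miR-30e-5p (-2.15). After quantile normalization miR-30b-5p (-1.26) and miR-30e-5p (-0.97) were farther apart than the neighbours miR-30e-5p and miR-30c-5p (-0.71). No order of the pairs is read from this.

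At a threshold of 2-fold, all 6 arms with a value on both arrays counted as lower in lamina propria and 0 as higher. Of the 353 rows with a value on both arrays, 91 (25.8%) counted as lower and 57 (16.1%) as higher by the same rule, and the median log2 ratio was 0.01. The family's ratios were in the lower part of that distribution: 23 of the 353 rows had a ratio below that of miR-30e-5p, and 77 had one below that of miR-30a-5p. At a 4-fold threshold 2 of the 6 arms counted as lower, miR-30b-5p and miR-30e-5p, against 30 of all 353 rows (8.50%).

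The comparison with all rows is loose, because lower ratios were common among rows as bright as these. In the upper 50% by mean log2 level, which holds all 6 arms, 73 of 177 rows (41.2%) were at least 2-fold lower. Within the range of mean level that the 6 arms span, 50 of 98 rows (51.0%) were, with a median log2 ratio of -1.13 and quartiles of -1.84 and 0.18.

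The accessions of the 7 members are all low numbers of the registry, and many rows of that kind were lower in lamina propria. Of 128 shared rows with accession numbers under 1000, a range chosen after the values were known, 59 (46.1%) were at least 2-fold lower and 84 had a log2 ratio below 0. Of the 48 such rows in the level range of the family, 36 (75%) were at least 2-fold lower, and their median log2 ratio was -1.58. With the 6 arms left out, 30 of the remaining 42 rows (71.4%) were, with a median of -1.56, beside the median of -1.59 of the miR-30 5p arms. This level range was set by all 6 arms and starts at the mean log2 level of miR-30e-3p (3.65). The 5p arms alone span 5.55 to 7.74, and rows in that narrower range were not counted apart. Set against rows of like level and accession number, the size of the family's difference was thus near the background, and nothing particular to miR-30 is read from it.

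**Figure D2:**
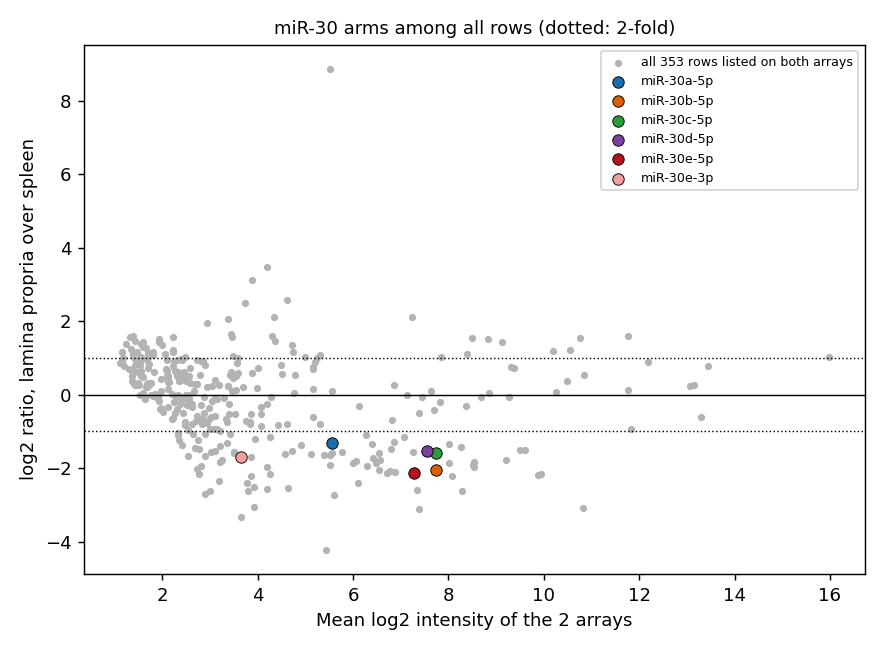
log2 ratio of lamina propria over spleen (vertical) against the mean log2 intensity of the 2 arrays (horizontal) for the 353 rows listed on both arrays (grey) and the 6 miR-30 arms among them (coloured), with dotted lines at 2-fold. The 6 arms lie between -2.15 and -1.31, below the dotted line at 2-fold lower, among many grey rows of the same level.

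The size of the difference depended on how the arrays were put on 1 scale. The summed intensity over all rows listed on each array was 182481 in lamina propria and 136232 in spleen, a ratio of 1.34. That ratio rests largely on the brightest shared row, which had a mean log2 level of 15.98 and a log2 ratio of 1.02. It is therefore not read as a difference across the whole array. Setting these full sums equal was not run, and it would lower every log2 ratio. The 3 constant scalings that were run went the other way. Every log2 ratio rose by 0.43 when both arrays were given the same median over shared rows, by 0.39 for the same upper quartile and by 0.47 for the same trimmed total. Under these 3 scalings miR-30a-5p was no longer 2-fold lower (log2 ratios of -0.88, -0.92 and -0.84) and the other 5 arms were. Of all 353 shared rows, 19.8%, 20.4% and 19.5% were at least 2-fold lower under the same 3 scalings, and 30.3%, 28.6% and 31.7% at least 2-fold higher. The gap between the median of the 5p arms and the median of all shared rows was -1.60 as deposited and under these 3 scalings.

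Scalings that change with level brought the median of the 5p arms nearer to 0. After quantile normalization 2 arms, miR-30b-5p (-1.26) and miR-30e-3p (-1.37), were at least 2-fold lower, as were 66 of all 353 shared rows (18.7%), and the median of the 5p arms was -0.83. After removal of the trend with level 3 arms were, miR-30b-5p (-1.18), miR-30e-5p (-1.20) and miR-30e-3p (-1.25), beside 60 of the 353 rows (17.0%), and the median of the 5p arms was -0.72. Each of the 6 arms had a log2 ratio below 0 under each of the 8 alternatives. The value nearest to 0 was that of miR-30a-5p after trend removal (-0.38). The use of 1 lowest value for both arrays leaves the arms' own values untouched, and adding a constant to both values cannot change the sign of a ratio. Those settings therefore could not have turned an arm above 0. As deposited, 175 of all 353 shared rows were below 0. Of the 48 with accession numbers under 1000 in the level range of the family, which include the 6 arms, 41 were. Among all shared rows, those below 0 were not counted under the alternatives. miR-30b-5p was at least 2-fold lower under all 8 alternatives and miR-30a-5p under 3, while the share of all shared rows at least 2-fold lower ran from 17.0% to 30.3%.

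**Figure D3:**
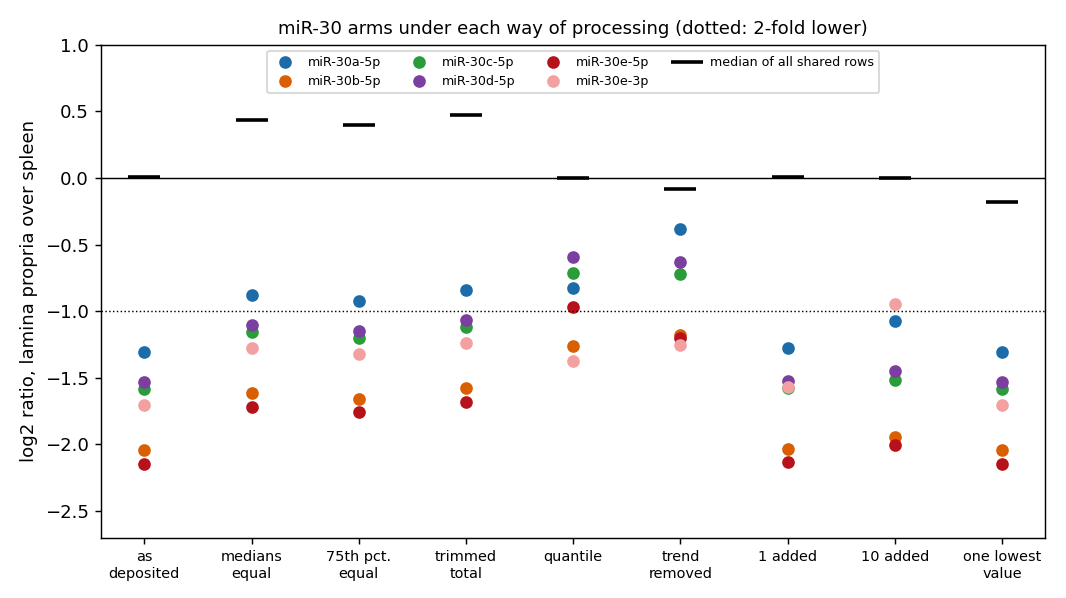
log2 ratio of lamina propria over spleen of the 6 miR-30 arms (points) as deposited and under the 8 alternative ways of processing, with the median of all shared rows as a black bar and a dotted line at 2-fold lower. Every point is below 0, and the median of the 5p arms comes nearest to 0 after quantile normalization (-0.83) and trend removal (-0.72), while miR-30e-3p comes nearest with 10 added (-0.95).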

How the data were processed

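Total RNA of 1 lamina propria and 1 spleen CD4+ T cell sample was labelled with Hy5 (miRCURY LNA labelling kit), per the labels' protocols. The deposited table holds 1 linear intensity per row and array. No label or header states the authors' background correction, detection rule or scaling. Of 739 rows, 378 had a lamina propria value and 516 a spleen value, and the others were blank.

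Members were found by accession, and the log2 ratio was taken from the deposited intensity values without scaling or pseudocount. With 1 array per tissue no test was made, and rows were counted at 2-fold. Members, lists and thresholds were chosen with earlier results of these data known. The rule for named miRNAs was all 7 members, plus the 5 rows of most similar ratio and marker lists by name. It also covered further arms of miR-30 hairpins. Only the members could be named. Further miR-30 arms, similar rows, other families and markers of further cell types were therefore not analysed here. The cell type label was not checked. Alternatives were 5 scalings (trimmed total: without the 10 brightest rows; trend: lowess, fraction 0.5), 1 or 10 added, 1 lowest value for both arrays, and 1.5-fold and 4-fold. Counting was tested on simulated data with large planted changes and little noise. That checks the code alone and says nothing about array error. Python 3.11.15, numpy 2.4.6, pandas 2.3.3, statsmodels 0.14.6 and matplotlib 3.10.9 were used.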

Additional observations from a re-analysis of the deposited data

How the results depend on the processing

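As deposited, 6 arms were at least 2-fold lower, with a median log2 ratio of -1.59 for the 5p arms and -1.70 for miR-30e-3p, the one 3p arm with a ratio. The count was 2 after quantile normalization, 3 after trend removal and 2 at 4-fold. It was 5 with medians, 75th percentiles or trimmed totals set equal and with 10 added. It was 6 with 1 added, with 1 lowest value for both arrays and at 1.5-fold. The 5p median was -1.16, -1.20 and -1.12 with medians, 75th percentiles and trimmed totals set equal, -0.83 after quantile normalization and -0.72 after trend removal. miR-30e-3p had -1.28, -1.32, -1.24, -1.37 and -1.25 under these 5, -1.57 with 1 added and -0.95 with 10 added. The 5p minus 3p difference of miR-30e was -0.44 as deposited, -0.56 with 1 added, -1.06 with 10 added, 0.40 after quantile normalization and 0.051 after trend removal. After quantile normalization the differences between neighbouring loci were -0.25 (miR-30e-5p minus miR-30c-5p), -0.11 (miR-30a-5p minus miR-30c-5p) and -0.66 (miR-30b-5p minus miR-30d-5p). With 10 added the second was 0.44. The first 3 scalings add 1 constant to every ratio, and their changes follow from it. The changes with 1 or 10 added follow from that constant, which weighs most on low values such as those of miR-30e-3p (6.96 and 22.67). Why values moved under quantile normalization and trend removal was not tested. Over all shared rows the share at least 2-fold lower was 18.7% after quantile normalization and 17.0% after trend removal. No arm was at least 2-fold higher under any of the 8 alternatives, where the share of all shared rows that were ran from 5.10% to 31.7%. A constant added to both values, or 1 lowest value for both arrays, could not have made any of the arms higher. As deposited, no arm was at least 1.5-fold or 4-fold higher. The shares of all rows that were so were not counted, nor was the share at least 1.5-fold lower. No paired analysis was possible because there was a single array for lamina propria and for spleen, which also leaves no replicate to omit. Signal over background is unknown.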

Other observations

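The lamina propria intensity of miR-30e-5p and the spleen intensity of miR-30a-5p were both 73.85. Among values over 20 this was the 1 number that occurs on both arrays to 2 decimals. How often such a match arises by coincidence was not tested. Levels of different probes are not comparable, so nothing is read from it.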
